A study of Mus musculus with 9 samples.

Results

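The cells described here are C1q-negative MHC-II cells of the mouse epididymis: single cells that carried class II antigen-presentation transcripts and myeloid transcripts, but no transcript of the complement component C1q. They were chosen among barcodes with at least 300 and at most 4000 detected genes, at most 20000 UMIs (unique molecular identifiers, each counting 1 captured transcript) and under 50% mitochondrial UMIs. A member had at least 1 UMI of 3 or more of Cd74, H2-Aa, H2-Ab1 and H2-Eb1, at least 1 UMI of 2 or more of Ptprc, Fcer1g, Tyrobp and Lyz2, and none of C1qa, C1qb, C1qc, Cd3d, Cd3e or Cd3g. This rule found 596 members among 42087 kept cells, which is 1.42%. All mice were untreated C57BL/6 males. The caput, corpus and cauda (the head, body and tail of the duct) were each profiled at postnatal day 42 (P42, 1 pool) and day 56 (P56, 2 pools, replicate 1 and replicate 2). A pool held the epididymides of 5 mice, and its 3 segments came from those same mice. The comparison was with 2198 C1q cells, which met the same MHC-II, myeloid and Cd3 limits but had at least 2 of the 3 C1q genes detected, and with 21109 background cells, which had no UMI of the 4 myeloid, the C1q or the Cd3 genes.

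MHC class II molecules hold peptides cut from material that a cell has taken up and show them to helper T cells. Cd74 encodes the invariant chain that guards the peptide groove, H2-Aa, H2-Ab1 and H2-Eb1 encode chains of the class II molecules themselves, and the H2-DM and H2-DO genes encode helpers of peptide loading. Tissue macrophages, monocytes, dendritic cells and B cells all carry class II; macrophages of many tissues also make C1q, whereas conventional dendritic cells as a rule do not. In the epididymis such phagocytes lie at the base of the epithelium, between sperm in the duct and the immune cells of the wall.

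The 9 libraries held 44869 barcodes, 32195 genes and between 23114756 UMIs (P42 cauda) and 50655384 UMIs (P42 caput). Members had a median of 4530.5 UMIs, C1q cells of 5602 and background cells of 5596. Of the 41926 distinct kept barcodes 116 occurred in more than 1 library; 4 members carried such a barcode and none was a member in more than 1 library. The P42 corpus and P42 cauda libraries stood apart: 375 of the 596 members came from them, and in the P42 cauda 70.7% of kept cells had a C1q UMI, against 12.3% to 36.3% in the other 8 libraries. In the P42 cauda 21.9% and in the P42 corpus 9.61% of cells without any UMI of the 4 myeloid genes still showed 3 or more MHC-II genes, against 0.938% to 5.60% in the other 7 libraries. The part of such free RNA in the number of members was not tested.

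The label under which these cells were chosen was mononuclear phagocytes, but genes of phagocytes led only a minority of their subclusters, described below. The values behind the rule are given as a description only, pooled over libraries whose mix differed between the kinds of cell. Cd74 was detected in 592 members at 5827 CPM (counts of the gene per 1000000 UMIs of the cells summed), close to the 5344 CPM of C1q cells and far above the 78.0 CPM of background cells. H2-Ab1 was detected in 457 members at 1170 CPM, against 879 CPM in C1q cells and 10.7 CPM in background cells. The myeloid transcripts were thinner. Fcer1g, the signalling chain of Fc receptors, was detected in 394 members (66.1%) at 294 CPM, against 573 CPM in C1q cells, and Tyrobp, the adaptor of activating myeloid receptors, in 390 members (65.4%) at 334 CPM, against 520 CPM. Lyz2, which encodes lysozyme, stood at 865 CPM in members and 2294 CPM in C1q cells.

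The MHC-II load was very uneven among members. The 4 MHC-II genes together gave a median of 13 UMIs per member, with quartiles at 6 and 72 and a maximum of 537, while C1q cells had a median of 29. In 179 members the sum was 6 UMIs or fewer, which is little above the lowest sum the rule allows. In 185 members (31.0%) the 4 genes made up at least 1% of all UMIs, a limit chosen after the values were seen. A like share of C1q cells reached it, 707 cells or 32.2%, and 13 background cells did. Across libraries these MHC-II-rich members numbered 4, 2 and 7 in the caput (P42, P56 replicate 1 and P56 replicate 2), 78, 32 and 16 in the corpus, and 39, 4 and 3 in the cauda. At the edge of the rule, the 255 members with exactly 3 MHC-II genes had a median of 6 MHC-II UMIs, and the 341 with all 4 had a median of 53. Just outside it lay 396 cells with 2 MHC-II genes and a median of 3 such UMIs, 536 with 1 myeloid gene and a median of 6, 687 with a single C1q gene detected and a median of 11, and 33 with a Cd3 UMI.

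Members were clustered on their own expression, after each gene was centred within its library, and they fell into 9 subclusters. Most were led by genes of the epididymal wall rather than of phagocytes. Subcluster 1 with 155 cells was led by Spint4 and Spint5, protease inhibitor genes, and by Ptgds, the prostaglandin D synthase. Of its cells 46 were MHC-II-rich. Subcluster 2 with 102 cells was led by Gm13782, Txndc16 and Car4. All 5 erythroid genes listed were at least 2 times the level of the other members there, at 32529 CPM summed against 9900 CPM, although none was among its 10 leading genes, and 64 of its cells came from the P42 corpus. Subcluster 3 with 89 cells was led by Flrt2, Ldb2 and Efemp2, and all 8 stromal markers were at least 2 times higher, at 55139 CPM against 2873 CPM. In subcluster 5 with 51 cells all 5 clear and narrow cell markers were raised, at 3651 CPM against 344 CPM. Subcluster 6 with 35 cells was led by Cst12 and Pate10 and carried principal cell markers at 67870 CPM against 13433 CPM; 5, 8 and 17 of its cells came from the caput libraries. Subcluster 8 with 26 cells was led by Krt5, Dll1 and Ly6d and raised 4 of 5 basal cell markers, at 1233 CPM against 66 CPM. Subcluster 9 with 24 cells was led by Rnase13 and Defb15. The median MHC-II sum in these 7 subclusters was between 6 and 15 UMIs per cell.

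**Figure D1:**
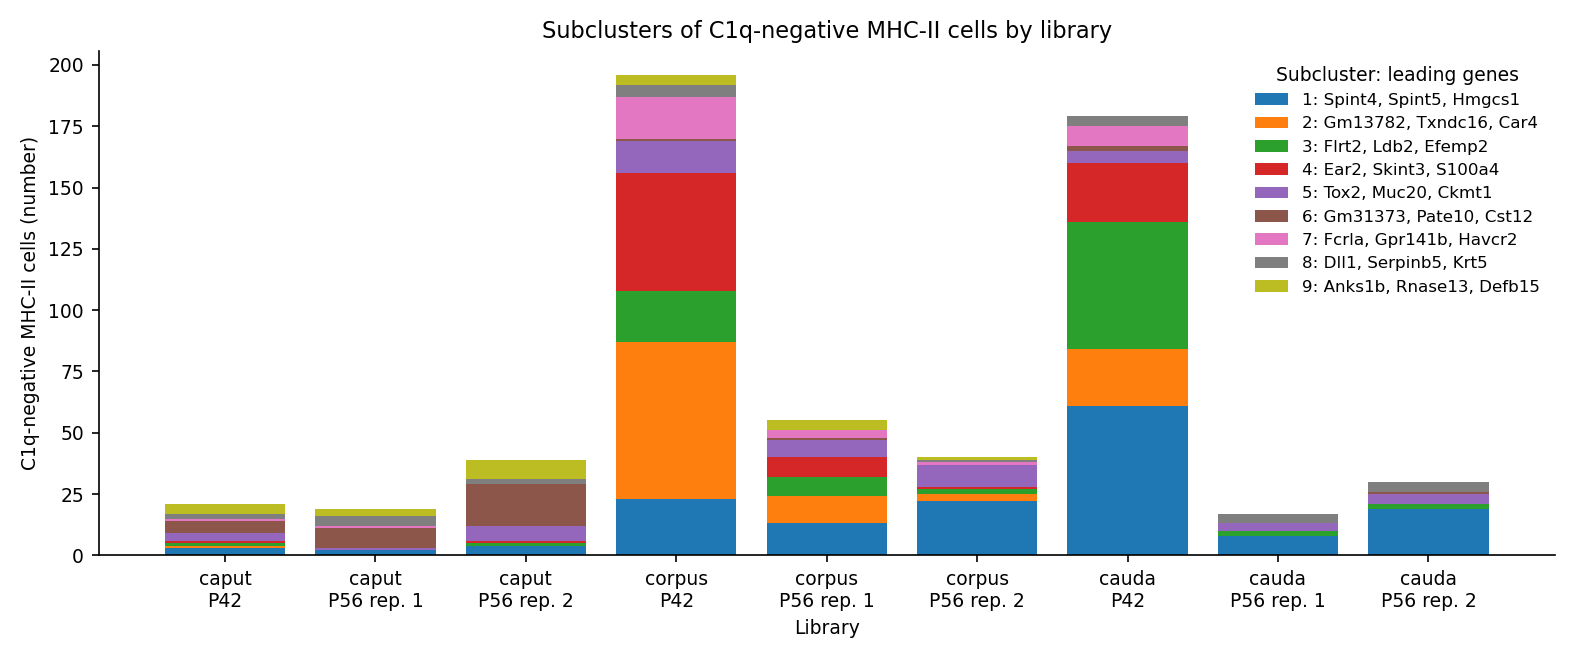
Each stacked bar is 1 library and gives the number of members (vertical axis) in each of the 9 subclusters, coloured and named by their 3 leading genes. The bars of the P42 corpus (196 cells) and P42 cauda (179) are the tallest and hold most of subclusters 4 and 7, while subcluster 6 is found mostly in the 3 caput bars.

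Subclusters 4 and 7 were different. All 31 cells of subcluster 7 and 75 of the 83 cells of subcluster 4 were MHC-II-rich, with medians of 169 and 156 MHC-II UMIs. Subcluster 7 was led by Fcrla, Gpr141b, Havcr2, Xcr1 and Clec9a. All 9 listed markers of conventional type 1 dendritic cells (cDC1) were at least 2 times the level of the other members, 5 of them were among its 10 leading genes, and the 9 summed to 3873 CPM against 193 CPM. It is therefore called cDC1-like. Subcluster 4 was led by Ear2, Skint3, S100a4, Nfkbid and Igsf6. It raised 8 of 10 monocyte markers, all 8 cDC2 markers, 5 of 6 markers of conventional dendritic cells at large and 8 of 15 macrophage markers, so no single name fitted it and it is called the Ear2/Cd209a subcluster. Since members were clustered on these same genes, the differences are descriptions and carry no test. With the clustering resolution halved, doubled or with genes not centred, 31, 31 and 29 cells fell into the cDC1-like subcluster, of which 31, 31 and 28 were the same cells. For the Ear2/Cd209a subcluster these numbers were 80, 72 and 98 cells, of which 80, 72 and 82 were the same.

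**Figure D2:**
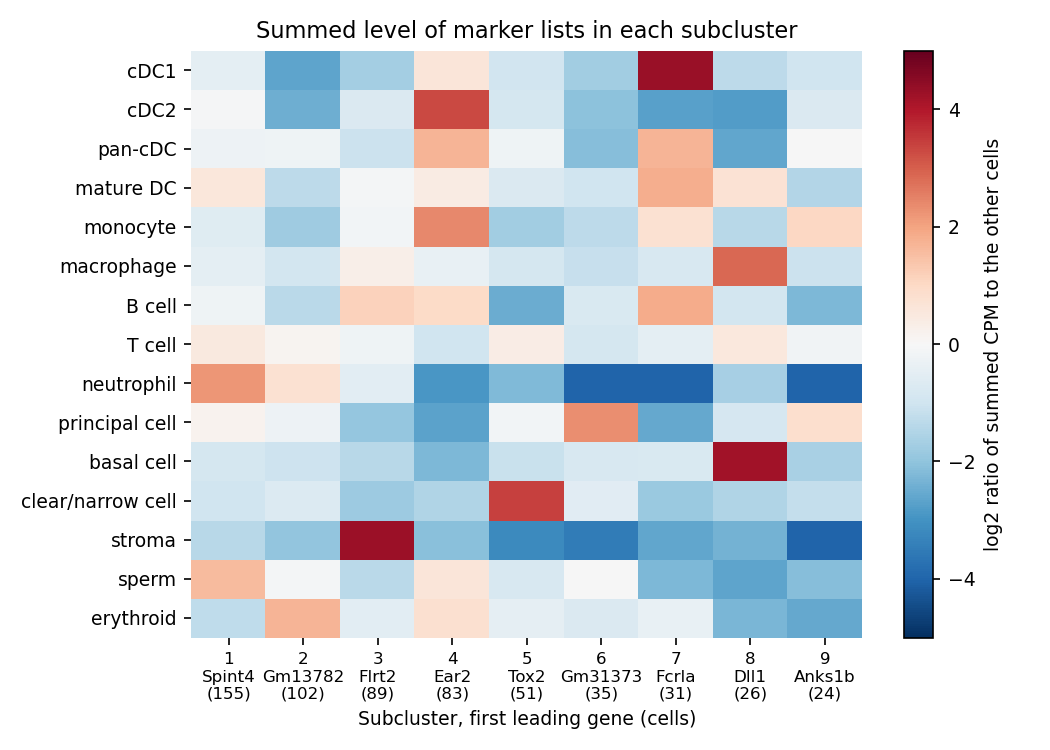
The heat map gives, for each subcluster (columns, with the first leading gene and the number of cells) and each marker list (rows), the log2 ratio of the summed CPM to that of the other members, red for higher and blue for lower. The cDC1 list stands out in subcluster 7, at 20.1 times the other members, the cDC2 and monocyte lists in subcluster 4, the stromal list in subcluster 3 and the basal cell list in subcluster 8, where the macrophage list is raised too.

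Many genes of class II presentation carry a Y box, a CCAAT-type element bound by the factor NF-Y, close to their start. It lies next to elements bound by other factors of the complex that recruits Ciita. The 130 bases upstream of the annotated start of 4 such genes described here, from RefSeq on GRCm38.p6, are shown because H2-Aa and H2-Eb1 are part of the rule and H2-DMb2 and H2-Ob turn up in the comparisons. They were chosen because they hold the letters searched for. Each is written 5′ to 3′ on the gene's own strand, and the capitals mark the letters TGATTGG, which were searched on both strands.
H2-Aa, chr17:34287824-34287953, minus strand: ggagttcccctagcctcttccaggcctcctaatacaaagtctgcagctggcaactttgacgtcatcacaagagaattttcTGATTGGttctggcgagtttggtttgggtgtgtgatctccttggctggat
H2-Eb1, chr17:34305737-34305866, plus strand: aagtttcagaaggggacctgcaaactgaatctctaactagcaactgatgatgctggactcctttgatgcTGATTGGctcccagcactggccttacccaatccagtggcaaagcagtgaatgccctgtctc
H2-DMb2, chr17:34145119-34145248, plus strand: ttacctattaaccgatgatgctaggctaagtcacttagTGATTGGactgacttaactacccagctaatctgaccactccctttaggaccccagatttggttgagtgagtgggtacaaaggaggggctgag
H2-Ob, chr17:34238775-34238904, plus strand: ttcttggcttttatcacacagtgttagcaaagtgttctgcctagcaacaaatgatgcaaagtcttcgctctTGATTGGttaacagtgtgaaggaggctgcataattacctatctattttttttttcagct
The same letters occur within 250 bases upstream of 2375 of the 32851 annotated gene starts searched (7.23%). H2-DMb1, H2-Oa and H2-Eb2 also hold them, whereas H2-DMa does not at either of its 2 annotated starts. They are a description of the sequence and were not related to the levels below.

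The cDC1-like cells carried every defining gene of cDC1 that was listed. cDC1 take up dead cells and hand their antigens to cytotoxic T cells. Their UMIs came to 56.0% from the P42 corpus and to 27.8% from the P42 cauda, so in this and the next paragraph C1q and background cells were weighted to the same library mix, a step chosen after the data were seen. Xcr1, the receptor for the chemokine Xcl1 and a defining gene of the type, gave 41 UMIs in 19 of the 31 cells, 300.2 CPM (exact Poisson 95% interval 215 to 407), against 5.04 CPM in C1q cells and 1.49 CPM in background cells. Clec9a, the receptor for actin laid bare on dead cells, gave 21 UMIs in 15 cells, 154 CPM (95.2 to 235), against 2.82 CPM in C1q cells. These levels were 59.6 and 54.5 times those of C1q cells, a description of genes that led the subcluster, with UMIs pooled over its cells and intervals that cover counting error only. Irf8, a transcription factor that cDC1 need, stood at 901 CPM (748 to 1075) and was found in 26 of 31 cells, 10.8 times the 83.6 CPM of C1q cells. Batf3, its partner, stood at 109.8 CPM against 29.8 CPM. Naaa, an acid amidase gene typical of the type, gave 1779 CPM (1563 to 2018) and was found in 30 of 31 cells. Tlr3, the sensor of double-stranded RNA, stood at 198 CPM against 5.77 CPM, Wdfy4, needed for cross-presentation, at 132 CPM against 5.25 CPM, and Cadm1 and Itgae at 212 and 87.9 CPM against 57.2 and 0.753 CPM. Xcr1 or Clec9a was detected in 24 of the 31 cells.

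Of the 15 macrophage markers 9 were detected in the cDC1-like cells. Adgre1 (F4/80), Csf1r, Cx3cr1, Trem2, Ms4a7 and Folr2 were at 0 UMIs in all 31 cells, where 3 UMIs would be 22.0 CPM, and the 15 markers summed to 1010 CPM against 9943 CPM in C1q cells and 1624 CPM in background cells. Cd68, a lysosomal protein gene, stood at 168 CPM in 16 cells, against 209 CPM in C1q cells, and Lyve1 gave 17 UMIs in 3 cells; both were at least 2 times the level of the other members. The cDC2 genes Cd209a, Mgl2 and Irf4 were also at 0 UMIs. Ccr2, the chemokine receptor that brings monocytes out of the blood, was present at 469 CPM in 20 cells. Markers of mature, migrating dendritic cells came from very few cells: Ccr7, which guides cells to lymph nodes, gave 18 UMIs in 2 cells, and Ccl22 gave 14 UMIs in 2 cells. Xcr1 or Clec9a was found together with Ccr7 or Fscn1 in 2 cells and without them in 22. Cxcl9, an interferon-induced chemokine, gave 44 UMIs in 5 cells, and Il12b, a subunit of interleukin 12, gave 11 UMIs in 2 cells. Principal cell genes summed to 3214 CPM, against 12516 CPM in background cells, and no cell was among the 5% of kept cells with the highest doublet scores. Haemoglobin and other erythroid genes stood at 11122 CPM, against 16469 CPM in C1q cells and 30737 CPM in background cells, and their part in the description was not tested.

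The cDC1-like cells came mostly from the corpus at P42. They numbered 17, 3 and 1 in the corpus libraries (P42, P56 replicate 1, P56 replicate 2), 8, 0 and 0 in the cauda and 1, 1 and 0 in the caput. That was 0.373% of kept cells in the P42 corpus (exact 95% interval 0.217 to 0.596), 0.174% in the P42 cauda (0.0753 to 0.343) and 0.0635% in the P56 replicate 1 corpus (0.0131 to 0.185). A count of 0, with 3 counts taken as the limit, allows a share of up to 0.0618% in the P56 replicate 1 cauda and 0.0616% in the P56 replicate 2 cauda. Xcr1 was not found in this subcluster alone: among all 596 members it gave 60 UMIs in 30 cells, of which 41 UMIs in 19 cells were in the subcluster, with 1, 3 and 0 UMIs in the caput, 25, 1 and 5 in the corpus and 19, 2 and 4 in the cauda.

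The 83 cells of the Ear2/Cd209a subcluster carried genes of cDC2 and of monocytes side by side. cDC2 present antigen mainly to helper T cells, and monocytes can take on many of the same genes once they enter tissue. The P42 corpus gave 57.6% and the P42 cauda 33.5% of their UMIs, and C1q and background cells were again weighted to their library mix. Cd209a, a lectin of cDC2 and monocyte-derived cells, gave 161 UMIs in 53 cells, 497 CPM (423 to 580), which was 13.7 times the 36.3 CPM of C1q cells and far above the 2.26 CPM of background cells. In the P42 corpus alone it stood at 456 CPM against 44.6 CPM in C1q cells, and in the P42 cauda at 562 CPM against 27.1 CPM. Mgl2 stood at 371 CPM (307 to 443) and Clec10a at 235 CPM (185 to 294), lectins that macrophages also carry, at 2.64 and 1.61 times the C1q cells. Ear2, an RNase gene listed here for patrolling monocytes, gave 161 UMIs in 35 cells, 497 CPM against 188 CPM in C1q cells. Ccr2 stood at 896 CPM (795 to 1005) and was found in 62 cells, 3.18 times the 281 CPM of C1q cells. Fn1 stood at 367 CPM, Ms4a4c at 232 CPM and Ly6c2 at 108 CPM, against 172, 30.6 and 11.3 CPM.

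Cd209a was found with Ccr2 or Ly6c2 in 38 of the 83 cells and without them in 15. In the P42 corpus 27 of 48 cells (56.3%, at a median of 3452.5 UMIs) had both, against 11 of 270 C1q cells (4.07%, 3820 UMIs) and 1 of 1305 background cells (0.0766%, 3047 UMIs). In the P42 cauda 9 of 24 cells had both (37.5%, 4216 UMIs), against 4.65% of C1q cells (4938 UMIs) and 0.276% of background cells (1603 UMIs). Members were clustered on these same genes, so these shares are a description. Taken singly, Cd209a was found in 70.8% and Ccr2 or Ly6c2 in 83.3% of the subcluster's P42 corpus cells. For its P42 cauda cells the shares were 58.3% and 70.8%. Whether the genes met in a cell more often than these shares would give was not tested. Ccr2 was found in cDC1-like cells too. A broader set of monocyte genes was less particular to the subcluster. At least 1 of Fn1, F13a1, Ms4a4c, Plac8 and Chil3 was found in 77.1% of its cells in the P42 corpus but also in 40.0% of background cells. Flt3, the receptor that dendritic cells depend on, was found in 8 cells and Csf1r, the receptor that macrophages depend on, in 18, with no cell holding both. At this depth, a median of 3459 UMIs per cell, a gene at 0 in a cell may have gone uncaptured. Xcr1 or Clec9a was found in 2 cells, neither of which had Cd209a.

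Summed levels of chemokine and of cytokine genes were lower in the Ear2/Cd209a subcluster than in C1q cells. The chemokine list summed to 4916 CPM against 9431 CPM, with 1 gene, Ccl17, at least 2 times higher and 14 lower by that ratio, and the cytokine list to 754 CPM against 1288 CPM, with 1 gene higher (Il1b) and 9 lower. The pattern recognition list summed to 741 CPM against 795 CPM, with 2 genes higher (Clec7a and Clec4d) and 10 lower. Genes counted as lower needed no UMI in the subcluster, unlike those counted as higher. In it 3 chemokine, 7 cytokine and 8 pattern recognition genes were at 0 UMIs. The share of all genes that were lower by that ratio was not counted. The next 6 genes stood above C1q cells and were picked after their values were seen. Cfp, which encodes properdin of the complement system, stood at 1084 CPM against 619.6 CPM in C1q cells. The chemokine genes Ccl6 and Ccl9 stood at 1028 and 503 CPM against 773 and 263 CPM, Il1b at 469 CPM against 169 CPM, and the costimulatory ligand gene Tnfsf9 at 287 CPM against 24.9 CPM. Clec7a, the receptor for fungal glucan also known as dectin-1, stood at 327 CPM against 149.6 CPM. Genes of resident macrophages were lower than in C1q cells: Apoe stood at 457 CPM against 6868 CPM, Pf4 at 30.9 CPM against 919.6 CPM, Ms4a7 at 12.4 CPM against 257 CPM and Csf1r at 77.2 CPM against 197 CPM. The subcluster held 48, 8 and 1 cells of the corpus libraries, 24, 0 and 0 of the cauda and 1, 0 and 1 of the caput, that is 1.05% of kept cells in the P42 corpus (0.777 to 1.39) and 0.523% in the P42 cauda (0.335 to 0.777). Erythroid genes summed to 23199 CPM in it, against 16666 CPM in C1q cells and 31686 CPM in background cells, and 4 of its cells were among the 5% with the highest doublet scores; the part of either in its levels was not tested.

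**Figure D3:**
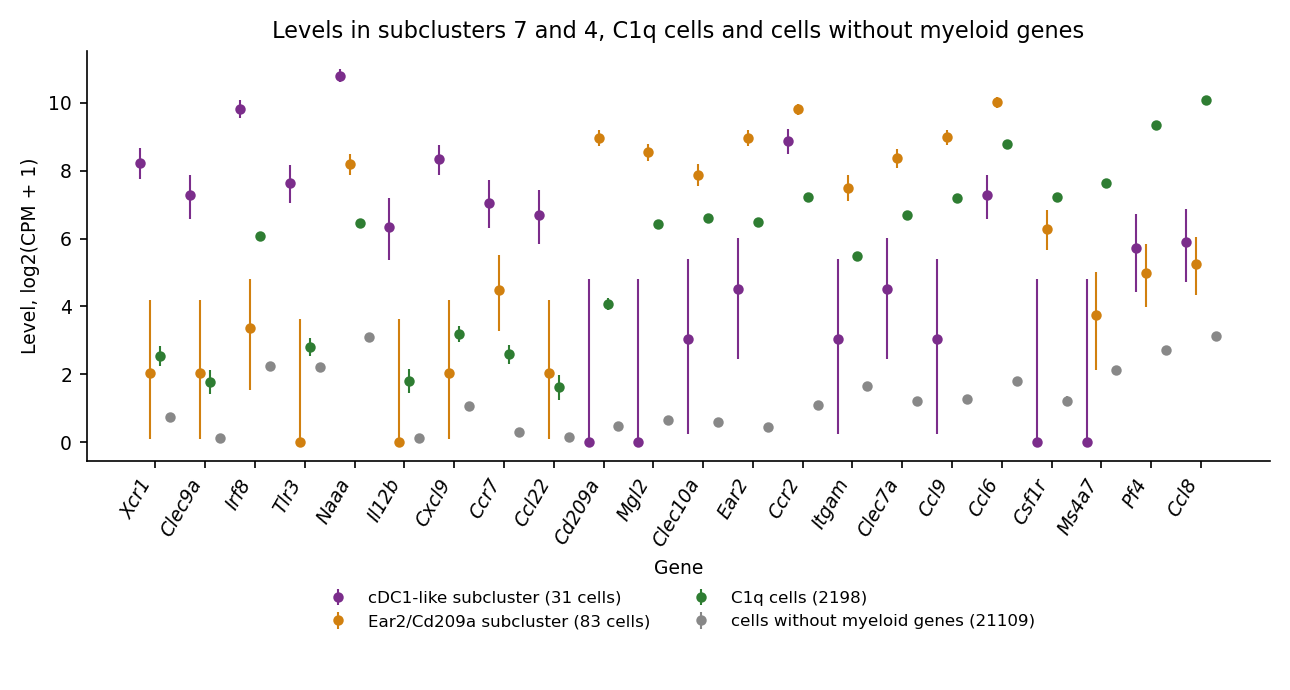
Points give the level of selected genes as log2(CPM + 1), summed over the cells of each kind in all libraries without weighting, and bars the exact Poisson 95% intervals, for the cDC1-like cells (31), the Ear2/Cd209a subcluster (83), C1q cells (2198) and background cells, named cells without myeloid genes (21109). Xcr1, Clec9a, Irf8, Tlr3 and Naaa are highest in the cDC1-like cells, Cd209a, Mgl2, Ear2 and Ccl9 in the Ear2/Cd209a subcluster, and Ms4a7, Pf4 and Ccl8 in the C1q cells.

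Ciita, H2-DMa, H2-DMb1, H2-DMb2 and H2-Ob stood at least 2 times higher in both subclusters than in C1q cells of the same library mix, while some proteases of the pathway stood lower. The rule chose members by class II genes and both subclusters were rich in them, so these levels are a description. The C1q cells were not clustered, and 32.2% of them were MHC-II-rich. Summed over all libraries, the 4 MHC-II genes stood at 39743 and 48105 CPM in the subclusters, against 9113 CPM in C1q cells. The part of this unlike choice in the levels was not tested. Ciita, the master regulator of class II genes, stood at 146 CPM in the cDC1-like cells and 114 CPM in the Ear2/Cd209a subcluster, against 21.6 and 22.5 CPM in C1q cells. H2-DMa, a chain of the peptide exchanger, stood at 813 and 880.1 CPM against 223 and 230.2 CPM, and H2-Ob, a chain of its inhibitor, at 65.9 and 64.9 CPM against 4.44 and 4.58 CPM. H2-Oa had at most 3 UMIs in each. Ctss, the protease that trims the invariant chain, went the other way in the cDC1-like cells, at 373 CPM against 992 CPM, while it stood at 1275 CPM against 976 CPM in the Ear2/Cd209a subcluster. Lgmn, another lysosomal protease gene, was lower in both, at 29.3 and 92.6 CPM against 458 and 469 CPM. Summed over the list, MHC-II loading genes stood at 2197 CPM in the cDC1-like cells against 2231 CPM, and at 3635 CPM in the Ear2/Cd209a subcluster against 2246 CPM. In the cDC1-like cells 6 MHC-II loading genes were at least 2 times higher than in C1q cells and 5 lower by that ratio. In the Ear2/Cd209a subcluster 6 were higher and 3 lower. Of the 14 genes listed 10 had over 3 UMIs in each subcluster, while 3 gave no UMI in the cDC1-like cells and 2 in the other. Genes counted as lower needed no UMI in the subcluster, and the share of all genes lower by that ratio was not counted. Genes were counted as higher only where they had over 3 UMIs in the subcluster, and of all such genes 21.1% of 4422 were at least 2 times higher in the cDC1-like cells and 12.7% of 6881 in the Ear2/Cd209a subcluster. For class I presentation 5 of 9 genes reached that ratio in the cDC1-like cells, H2-Q7, Tap1, Tap2, Psmb8 and Psmb9, the last an immunoproteasome subunit at 300.2 CPM against 24.4 CPM. Of the interferon-stimulated genes 7 of 13 did in the cDC1-like cells and 1 of 14 in the Ear2/Cd209a subcluster. Cell cycle genes reached it in 10 of 14 and 6 of 13 cases; Mki67 stood at 124 and 127 CPM against 56.8 and 58.6 CPM, and of the Top2a UMIs of the cDC1-like cells all 27 came from 2 cells. None of the macrophage markers with over 3 UMIs did, 5 in the cDC1-like cells and 13 in the Ear2/Cd209a subcluster.

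The remaining members were 79 that were MHC-II-rich and 403 that were not. The 79 had Cd74 at 12401 CPM, Cd209a at 224 CPM, Mgl2 at 185 CPM, Ccr2 at 179 CPM and Xcr1 at 42.0 CPM, but also principal cell genes at 15240 CPM. In the P56 corpus libraries they numbered 21 and 14 cells, 0.444% and 0.312% of kept cells, beside 8 and 1 cells of the Ear2/Cd209a subcluster and 3 and 1 cDC1-like cells, and 17 came from the P42 corpus. In the 403 others Cd74 stood at 1176 CPM and Cd209a at 14.8 CPM, while principal cell genes summed to 21389 CPM, stromal genes to 14216 CPM and erythroid genes to 14555 CPM. Their macrophage markers summed to 1917 CPM.

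Members were a larger share of kept cells in the corpus than in the other segments in each of the 3 pools, but the pools differed so much that the segments overlapped. The share was 0.499%, 0.390% and 0.794% in the caput, 4.30%, 1.16% and 0.891% in the corpus, and 3.90%, 0.350% and 0.616% in the cauda (P42, P56 replicate 1, P56 replicate 2). The means were 0.561% ± 0.209 (SD, n = 3), 2.12% ± 1.89 and 1.62% ± 1.98. An exact two-sided permutation test of the segment labels within pools gave p = 0.278 (0.278 after Benjamini-Hochberg adjustment over 3 relations), where the smallest possible p is 0.0278. With each cell thinned to 1000 UMIs the means were 0.235%, 0.993% and 1.04%, and the corpus was the highest in 1 of 3 pools (exact permutation p = 0.611).

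As a share of members plus C1q cells, members were most frequent in the corpus with no overlap. They made up 8.05%, 17.9% and 12.8% in the caput, 42.1%, 41.0% and 34.2% in the corpus, and 15.9%, 19.5% and 15.6% in the cauda. The exact binomial 95% intervals were 37.5% to 46.7%, 32.6% to 49.9% and 25.7% to 43.5% in the corpus. The corpus libraries all lay above every caput and cauda library. The means were 12.9% ± 4.94 (SD, n = 3), 39.1% ± 4.28 and 17.0% ± 2.19, so corpus and caput differed by 26.2 percentage points; the exact two-sided permutation p within pools was 0.0278, the smallest these labels allow, and 0.0833 after adjustment. When each cell was thinned to 1000 UMIs before the rule was applied, the caput mean was 29.0% ± 15.3, the corpus 54.2% ± 4.06 and the cauda 58.5% ± 24.4, and the corpus was no longer the highest (exact permutation p = 0.111). Without the P42 pool the difference was 22.3 percentage points, and no p under 0.167 was then possible.

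**Figure D4:**
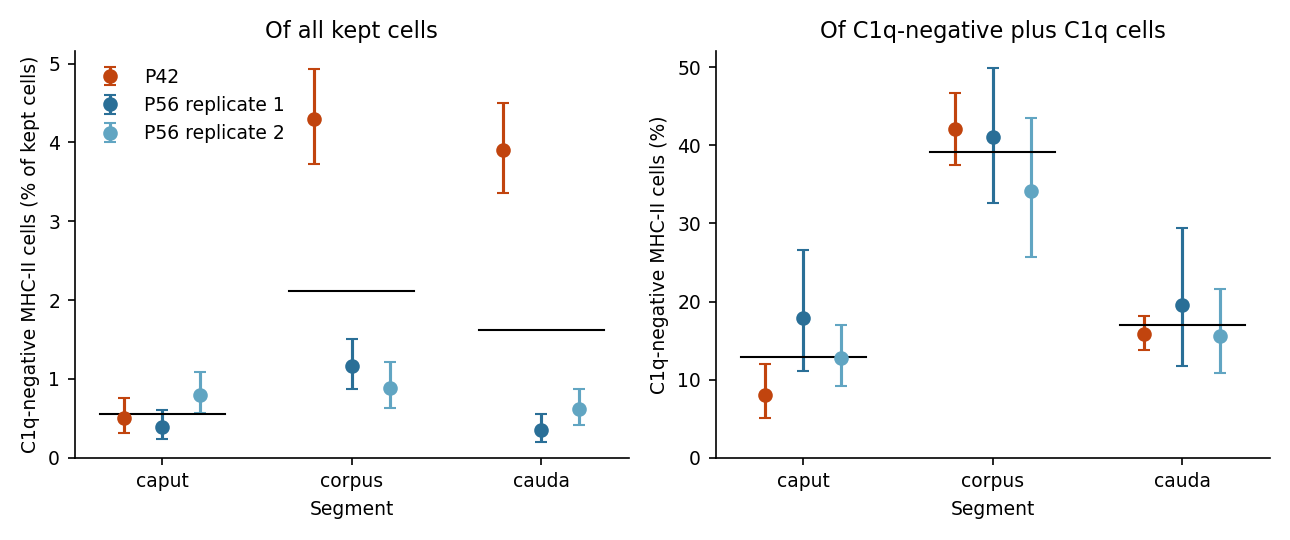
Each point is 1 library with its exact 95% binomial interval, and the horizontal lines are segment means; the left part gives members as a percentage of kept cells and the right part members as a percentage of members plus C1q cells. On the right, the 3 corpus libraries lie between 34.2% and 42.1% and the other 6 between 8.05% and 19.5%.

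Mitochondrial transcripts, which the study compared between segments, took 5.82%, 7.55% and 7.17% of the members' UMIs in the caput, 13.3%, 18.6% and 20.1% in the corpus and 11.3%, 20.9% and 15.9% in the cauda. Every caput library lay below every library of the other segments, with means of 6.84% ± 0.911 (SD, n = 3), 17.3% ± 3.55 and 16.1% ± 4.80 (exact two-sided permutation p = 0.0833, adjusted 0.125). C1q cells ranged from 6.59% to 19.95% and kept cells from 6.52% to 23.1% over the same libraries.

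Against C1q cells of the same library, members had lower levels of macrophage markers and higher levels of a small number of genes, among them Cd209a and Xcr1. The sums tested held all members, and 2369487 of their UMIs came from the 403 MHC-II-poor members described above. The 79 other MHC-II-rich members gave 356901 UMIs, the Ear2/Cd209a subcluster 323810 and the cDC1-like cells 136576. Of the 2198 C1q cells 707 were MHC-II-rich. C1q transcripts chose both kinds, so genes that go with C1q in macrophages were bound to the choice, and the tests below say how far the rest of the transcriptome followed. Of 8011 genes tested by edgeR's quasi-likelihood test with library as a block, 302 (3.77%) passed, that is, differed by a log2 fold change of 1 or more with an adjusted p (Benjamini-Hochberg) under 0.05. Of these, 279 (3.48%) were higher in C1q cells and 23 (0.287%) higher in members. Across all genes the median log2 fold change was -0.01. The test counted the 3 libraries of a pool as independent. With segment as a covariate in place of the library block 77 of 6364 genes passed, and without the P42 pool 72 of 4689 did.

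All 14 macrophage markers tested were lower in members, with a median log2 fold change of -2.91. The choice by C1q bound this direction, so the p-values of macrophage genes here are not separate support for it. Pf4, a platelet chemokine that tissue macrophages also make, stood at 16.0, 43.4 and 36.5 CPM in the members of the caput, 23.7, 13.8 and 12.3 CPM in the corpus and 111, 15.8 and 3.80 CPM in the cauda. In C1q cells it was 245, 201 and 141 CPM, 837, 717 and 350 CPM, and 1167, 227 and 124 CPM, above the members of the same library in 9 of 9 (log2 fold change -3.95 ± 0.23 SE, edgeR adjusted p = 4.05e-13). Ccl8, a monocyte-attracting chemokine, was at 0 in the members of all 3 caput libraries and at 31.2, 18.5 and 4.11 CPM in the corpus, where C1q cells had 1302, 1401 and 986 CPM (-4.64 ± 0.26, edgeR adjusted p = 1.89e-13). The other genes named by the rule for this direction were Clec5a (-5.19), P2ry12 (-4.14), C3ar1 (-4.05), Ccl12 (-4.01), Ms4a7 (-3.92), C5ar1 (-3.87), Hpgds (-3.46) and Il1a (-3.44), among them receptors for the complement fragments C3a and C5a. Mrc1, the mannose receptor (-2.94), Csf1r (-2.96), Adgre1 (-2.89) and Apoe (-1.91) were lower too.

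Chemokines and sensors of macrophages followed. Of 21 chemokine genes 13 were lower and 2 higher in members (median -1.55), of 9 pattern recognition genes 7 were lower (median -1.68) and of 17 scavenger genes 10 were lower (median -1.47). The 2 chemokines that were higher were Ccl5 (1.31) and Ccl17 (1.15), which draw T cells. Among the 10 MHC-II loading genes tested, H2-Ob and H2-DMb2 were higher and the proteases Ctss (-1.89) and Lgmn (-2.10) lower, with a list median of 0.09. No MHC-I gene of 10 passed, nor any of 13 principal cell, 7 stromal, 13 cell cycle or 17 immediate-early and heat shock genes. Principal cell genes summed to between 5672 and 52913 CPM in members, 3644 and 48844 CPM in C1q cells and 5199 and 59795 CPM in background cells over the 9 libraries, and members lay below the background cells of their library in 8 of 9.

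Cd209a was the gene with the largest rise among those whose direction held in all 9 libraries. Members had 47.9, 14.5 and 73.0 CPM in the caput, 118, 157 and 90.3 CPM in the corpus and 85.4, 63.2 and 7.59 CPM in the cauda. C1q cells had 0, 6.82 and 0 CPM, 44.6, 27.6 and 9.21 CPM, and 27.1, 0 and 0 CPM, below the members in every library. Among members, all 9 UMIs in the P42 caput came from 1 cell, as did all 2 in the P56 replicate 1 caput. In the P56 replicate 1 cauda 7 of 8 came from 1 cell. The log2 fold change was 2.47 ± 0.37 SE (edgeR adjusted p = 2.09e-05). Ifi205, an interferon-inducible gene, rose by 2.21 ± 0.33 (edgeR adjusted p = 1.89e-05), from 3.01 to 51.5 CPM in C1q cells to 11.4 to 144 CPM in members; in the P42 caput its 27 UMIs came from 1 cell. Lsp1, which encodes a leucocyte actin-binding protein, rose by 1.50 ± 0.23 (edgeR adjusted p = 2.57e-05), with 90.6, 7.23 and 58.4 CPM in the caput members, 197, 194 and 86.2 CPM in the corpus and 380, 126 and 19.0 CPM in the cauda. H2-DMb2 rose by 1.07 ± 0.28 (edgeR adjusted p = 0.0142), with 7.59 to 50.8 CPM in members and 0 to 34.3 CPM in C1q cells, and lost the call in 3 of the 10 alternatives in which it was tested. No other gene of the 23 met the naming rule.

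Other genes among the 23 belonged to the gene lists. Xcr1 was higher by 2.21 ± 0.46 (edgeR adjusted p = 0.00157), and it was the 1 gene of 6 cDC1 markers tested that passed (list median 0.61). Irf8 did not, at -0.14. Cd209a was the 1 higher gene among 6 cDC2 markers, of which Sirpa (-1.52) and Clec4a2 (-1.91) were lower. Ccr7 (2.10) and Traf1 (1.88) were higher among 6 mature dendritic cell markers. Ccr7 gave 62 UMIs in 20 of the 596 members. All 16 of its UMIs in the P42 caput came from 1 cell, as did 14 of 30 in the P42 corpus. H2-Ob (2.01) was higher as well. Of 7 monocyte genes Ly6c2 (1.75) was higher and F13a1 (-3.53) lower, and of 5 costimulation genes Tnfsf9 (1.82 ± 0.39) was higher and Cd86 (-1.39) and Cd83 (-1.05) lower (list median -1.05). Of lymphocyte markers 0 of 2 T cell genes passed, 1 of 5 NK and innate lymphoid genes was higher (Klrk1, 1.50), and 1 of 2 B cell genes was lower (Ighm, -1.05). Of these Ly6c2 lost the call in 3 and Cd86 in 4 of 10 alternatives, Cd83 in 4 of 13, Ighm in 5 of 12, Klrk1 in 2 of 7 and Ccr7 in 2 of 10. Itgb7, a chain of the gut-homing integrin (2.56 ± 0.46), and Klrd1, which encodes CD94 of natural killer cells (2.20 ± 0.39), belonged to no list and were picked after their values were seen. Without the P42 corpus and cauda libraries, an alternative chosen after the data were seen, 91 of 5073 genes passed, 4 higher and 87 lower in members.

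**Figure D5:**
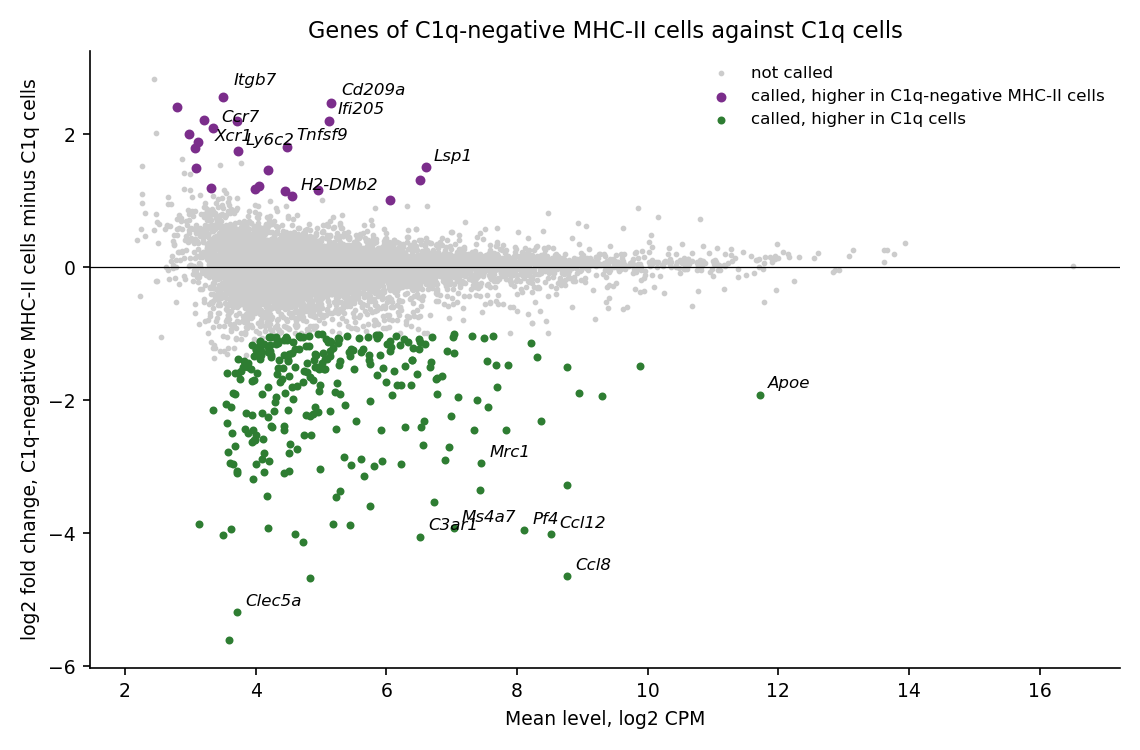
Each point is 1 of the 8011 genes tested, with its mean level in log2 CPM on the horizontal axis and its log2 fold change, members minus C1q cells, on the vertical axis. The 279 genes that passed and were higher in C1q cells, among them Ccl8 and Pf4, lie below -1, and the 23 higher in members, among them Cd209a and Ifi205, lie above 1.

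Between segments 554 of 3942 genes tested (14.1%) passed in edgeR's quasi-likelihood test with the pool as a block, of which the caput had the highest mean for 259 (6.57%), the corpus for 116 (2.94%) and the cauda for 179 (4.54%). For 369 of the 554 the members' level lay below that of the other kept cells, and for 59 it was at least 2 times as high. Without P56 replicate 1, 188 of 3918 genes passed, and without P56 replicate 2, 324 of 3126. Of 11 principal cell genes 8 passed, 6 of them highest in the caput, such as Lcn5 (log2 fold change 9.86 between highest and lowest segment) and Lcn8 (9.08), secreted lipocalins of the caput epithelium. Summed over the list, members had 32959, 50935 and 52913 CPM in the caput, 8438, 14526 and 18459 CPM in the corpus and 5672, 18572 and 28135 CPM in the cauda, and background cells had 35076, 59795 and 55871 CPM, 10406, 23977 and 22068 CPM, and 5199, 27087 and 31594 CPM. In members and in background cells alike, every caput library lay above every other library. Of 7 stromal genes 4 were highest in the cauda, and members of the P42 cauda had 36676 CPM of them against 361 to 5443 CPM in the other 8 libraries. The part of free RNA in these calls was not tested.

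Only genes at least 2 times above other kept cells in each library of their highest segment were named. None highest in the caput or cauda met that, and 17 highest in the corpus did. Ear2, the leading gene of the Ear2/Cd209a subcluster, stood at 0, 0 and 7.30 CPM in the caput, 111, 138 and 37.0 CPM in the corpus and 80.5, 15.8 and 0 CPM in the cauda (means 2.43 ± 4.22, 95.4 ± 52.5 and 32.1 ± 42.6 CPM, SD, n = 3), a log2 fold change of 4.52 (edgeR adjusted p = 0.0329). Each corpus library lay above each caput library, while corpus and cauda overlapped. Ccl9 stood at 10.7, 7.23 and 7.30 CPM in the caput, 129, 120 and 37.0 CPM in the corpus and 99.0, 39.5 and 3.80 CPM in the cauda (3.31, edgeR adjusted p = 0.0113). S100a4, a calcium-binding protein gene of motile cells, stood at 5.33, 7.23 and 7.30 CPM, 81.8, 41.5 and 49.3 CPM, and 61.9, 31.6 and 3.80 CPM (3.01, edgeR adjusted p = 0.0431). For both, every corpus library lay above every caput library. C1q cells of the same libraries showed a like order, untested here: Ccl9 stood at 9.04, 15.3 and 15.5 CPM in the caput, 282, 176 and 77.4 CPM in the corpus and 269, 34.4 and 23.3 CPM in the cauda. Ear2 stood at 4.82, 0 and 9.99 CPM, 225, 68.9 and 20.3 CPM, and 163, 0 and 0 CPM in them. Cytip, a regulator of leucocyte adhesion, rose by 3.27 (edgeR adjusted p = 0.0371) and Lyz1 by 4.53 (edgeR adjusted p = 0.0265). Of the 198 Lyz1 UMIs in the P42 corpus 124 came from 1 cell, and Lyz1 is a near copy of Lyz2, which the rule uses, so reads may be split between them. All 5 lost the call without P56 replicate 1 and with all 4 MHC-II genes required; over all alternatives the adjusted p ranged up to 0.346 for Ear2, 0.203 for Ccl9, 0.332 for S100a4, 0.466 for Cytip and 0.343 for Lyz1. Lyz1 and S100a4 also lost it without the P42 corpus and cauda libraries, and Lyz1 without the P42 pool.

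Among the phagocyte lists 3 of 4 monocyte genes tested passed, each in a different segment: Ccr2 was highest in the corpus (log2 fold change 2.24, edgeR adjusted p = 0.0246), Plac8 in the caput (2.22, edgeR adjusted p = 0.000241) and Fn1, which stromal cells also make, in the cauda (4.50, edgeR adjusted p = 0.0395). Plac8 stood at 618, 246 and 347 CPM in the caput members, and background cells without myeloid genes had 330.3, 304 and 337 CPM of it there, against 28.3 to 194 CPM in the other segments. Subcluster 9, which Rnase13 and Defb15 led, had it at least 2 times above the other members, and the part of epithelial transcripts in this call was not tested. Fn1 lost the call in 6 of the 10 and Ccr2 in 4 of the 11 alternatives in which they were tested. Clec7a (2.71), Cfp (2.54), Cd83 (1.80) and the chemokine Ccl17 (3.97) were highest in the corpus, although Cd83 lost the call in 6 of 11 alternatives. Clec7a lost it in 3, Cfp in 3 and Ccl17 in 2 of the alternatives in which they were tested. None of 5 macrophage, 3 cDC1, 4 cDC2 or 7 MHC-II loading genes passed. Of 17 immediate-early and heat shock genes 10 passed, 9 of them highest in the cauda, among them Atf3 (2.68) and Fos (1.50), transcription factors induced within minutes of a stimulus. The list summed to 9573, 4771 and 4561 CPM in the caput members and to 19599, 13411 and 10970.2 CPM in those of the cauda. Background cells showed a like order, with 11886, 3128 and 3359 CPM in the caput and 19292, 10357 and 9459 CPM in the cauda, and the part of free RNA was not tested. Ccl2 (3.41) and Cxcl1 (4.63), chemokines of monocytes and neutrophils, were highest in the cauda as well, although Ccl2 lost the call in 4 of 10 alternatives. The median log2 fold change between highest and lowest segment over all genes tested was 0.66.

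The difference between members and C1q cells itself depended on the segment for 13 of 8011 genes (0.162%) by an edgeR interaction test. It did so for 34 of 9304 genes without P56 replicate 1 and for 20 of 7778 without replicate 2. Without the P42 pool 9 of 4689 passed, and with DESeq2 3 of 8011. Each of the 13 lost its call under at least 1 of 5 alternatives. Differences below are means over libraries on the log2(CPM + 5) scale, which understates the change of low genes. Clec10a differed by -0.91 ± 0.56 (SD, n = 3) in the corpus and -1.01 ± 0.43 in the cauda, lower in members, while its caput difference of 1.04 ± 1.64 was smaller than the spread between libraries (edgeR adjusted p = 0.0112). Mgl2, a close relative of Clec10a with which it may share reads, differed by -1.81 ± 0.38 in the cauda, and its differences of 0.85 ± 1.32 in the caput and 0.11 ± 0.48 in the corpus lay within the spread (edgeR adjusted p = 0.0163). Pf4 was lower in members in every segment, by -2.49 in the caput and -4.84 in the corpus. Ccl8 was lower too, but it gave 0 UMIs in the members of all 3 caput libraries and 12, 6 and 30 in C1q cells, so the size of its caput difference is not known.

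Between P42 and P56 there was 1 pool against 2, so the spread came from the 2 P56 pools alone, and age cannot be told apart from the P42 pool. The test also counted the 3 libraries of a pool as independent, though they came from the same mice. When P56 replicate 1 or replicate 2 was left out, in an additive edgeR fit, no gene passed, and 534 and 285 genes had an unadjusted p under 0.05. The values below describe how that 1 pool differed from the other 2. Of 4972 genes 210 (4.22%) passed in edgeR's quasi-likelihood test, 61 (1.23%) higher at P56 and 149 (3.0%) higher at P42. Ccr2 stood at 74.6 CPM at P42 and 7.23 and 29.2 CPM at P56 in the caput, 282 against 143 and 86.2 CPM in the corpus and 191 against 15.8 and 15.2 CPM in the cauda. It was higher at P42 in all 3 segments, although 12 of its 14 UMIs in the P42 caput came from 1 cell, with a log2 fold change of -2.01 ± 0.32 SE from P42 to P56 (edgeR adjusted p = 0.000837). Ly6c2, which marks inflammatory monocytes, changed by -3.65 ± 0.86 (edgeR adjusted p = 0.0160), although its 11 UMIs in the P42 caput came from 1 cell. Cxcl9 changed by -4.27 ± 1.06 (edgeR adjusted p = 0.0209), with 19 UMIs in 1 cell of the P42 caput. Klrd1 changed by -2.39 ± 0.63 and Top2a, a gene of dividing cells, by -2.12 ± 0.57 (edgeR adjusted p = 0.0256 and 0.0285). In the P56 replicate 1 corpus the CPM of Top2a was not below that of the P42 corpus, with 12 of its 17 UMIs from 1 cell. Top2a lost the call in 5 of the 8 and Klrd1 in 2 of the 6 alternatives in which they were tested, and Ccr2 in 2 of 9. Ly6d, a gene that basal cells carry, was the 1 named gene higher at P56, by 2.47 ± 0.59 (edgeR adjusted p = 0.0158). In the P56 replicate 2 cauda 27 of its 40 UMIs came from 1 cell, in the corpus it stood at 15.1 CPM at P42 against 0 and 32.8 CPM at P56, and it lost the call in 3 of 6 alternatives.

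By list, 2 of 7 monocyte and 3 of 7 cell cycle genes were higher at P42 (medians -1.31 and -1.58), and none of 8 MHC-II loading, 4 cDC1 or 4 cDC2 genes passed. All 4 erythroid genes (median -2.90) and 4 of 7 stromal genes (median -1.54) were higher at P42, and 3 of 12 principal cell genes, Crisp1, Adam7 and Krt18, were higher at P56, where the median over all genes was -0.02. Erythroid genes summed to 8918 CPM in the members of the P42 caput against 10222 and 1205 CPM at P56, to 36048 against 1342 and 6626 CPM in the corpus and to 7846 against 63.2 and 205 CPM in the cauda. Their part in the age differences was not tested.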

How the data were processed

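Cells of the caput, corpus and cauda epididymidis of pools of 5 untreated mice were captured on microwell chips after red blood cell lysis. The authors trimmed reads, extracted cell barcodes with UMI-tools, aligned with STAR 2.7.3a to GRCm38.p6 and counted UMIs over exons; the deposited values are raw UMI counts per gene and barcode, in 1 table for all 9 libraries, and no column of other samples was present (0). The members, gene lists and comparisons were chosen with earlier results of these data known.

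Scripts in Python 3.11.15, with scipy 1.17.1, leidenalg 0.10.2, scanpy 1.11.5 and pandas 2.3.3, applied the rule and summed counts per library and kind. Sums were tested with edgeR 4.0.16 (R 4.3.3; filterByExpr, TMM, quasi-likelihood F test), after the procedure was tested on simulated data; DESeq2 1.42.0 was an alternative. Genes passed where the log2 fold change was 1 or more and p, adjusted by Benjamini-Hochberg, was under 0.05 (interaction: adjusted p alone). Rule genes were not tested. Pool was the block between segments, library the block against C1q cells. Pools pair the segments because these came from the same mice. Deviations of same-pool libraries correlated with a median of 0.106 (-0.00746 to 0.472, 9 pairs), against -0.0793 for the other 18 pairs. The deviations were taken from segment means, so the medians were tied to each other, and the P42 pool was the only one of its age. Among P56 libraries, same-pool pairs ranged from -0.00746 to 0.426 and pairs of different pools from -0.128 to 0.235, which overlap. Each library was deposited as a separate sample, 3 per pool. Between segments, p-values measure how the segment differences spread between pools. Against C1q cells, they measure how the difference between the kinds, taken within each library, spreads between libraries. In the interaction test it is the spread between libraries of the same segment. There the 3 libraries of a pool were counted as independent, and between ages they were too.

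Named genes were, per direction, the 5 (segments), 10 (against C1q cells) or 5 (ages) largest changes among genes that passed at 2 times the level of other kept cells, with the same sign in every library for C1q cells. Subclusters came from Leiden clustering (2000 variable genes, 20 components, 15 neighbours, resolution 0.5). To compare the 2 MHC-II-rich subclusters, the CPM of C1q and background cells were averaged over libraries, weighted by the UMIs each library gave to the subcluster. Doublets were not removed; the 5% highest Scrublet scores per library were left out as an alternative. Total depth was 23114756 to 50655384 UMIs per library. Intervals are exact at 95% and cover counting error only. CPM is not corrected for gene length, and levels of different genes are not compared.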

Additional observations from a re-analysis of the deposited data

Results flagged for a closer look

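The difference between members and C1q cells depended on the segment for 13 genes, each by an edgeR interaction test. Values are the mean log2 difference, members minus C1q cells, over the 3 libraries of caput, corpus and cauda, on the log2(CPM + 5) scale, which pulls low genes towards 0. Clec10a (1.04, -0.91 and -1.01, adjusted p = 0.0112) and Mgl2 (0.85, 0.11 and -1.81, adjusted p = 0.0163), lectin genes of macrophages and cDC2, were lower in members of the cauda, while their caput differences were smaller than the spread between libraries (SD 1.64 and 1.32, n = 3). Ednrb, the endothelin receptor (0.98, -2.70 and -2.58, adjusted p = 0.0108), and Slfn5 (1.12, -0.80 and -1.35, adjusted p = 0.0271) changed sign between caput and cauda, with a caput SD of 0.36 and 0.84.

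Tmem37 (-0.27, -2.72 and -1.59, adjusted p = 0.0108), Wfdc17 (0.22, -1.27 and -1.65, adjusted p = 0.0419) and the ficolin gene Fcna (-0.32, -3.78 and -2.35, adjusted p = 0.0271) were near 0 in the caput and lower in members elsewhere. Ccl8 (adjusted p = 0.0271) was lower in members in every segment, but it gave 0 UMIs in the members of all 3 caput libraries, so no caput difference is given. The chemokine genes Ccl12 (-4.20, -5.66 and -3.13, adjusted p = 0.0163) and Pf4 (-2.49, -4.84 and -3.66, adjusted p = 0.0163) were lower in members in every segment, most in the corpus. Ctss (-2.90, -1.55 and -1.48, adjusted p = 0.0271) and Rgs1 (-2.11, -1.52 and -0.23, adjusted p = 0.0163) were lowest in the caput, and Tnfsf9 (2.05, 1.56 and 1.004, adjusted p = 0.0186) had a positive mean in every segment, with SDs of 2.01, 0.99 and 1.26. The caput libraries held 21, 19 and 39 members, so the caput values rest on few cells.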

How the results depend on the processing

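The number of genes that passed varied with the libraries, the filter, the tool, the block and the strictness of the rule. The number tested varied too and is given beside it. Between segments 554 of 3942 genes passed. With no filter on low counts 996 of 20564 did, and with all 4 MHC-II genes required 364 of 2918. When a pool was left out 188 to 640 did, with 3126 to 3918 tested. Against C1q cells 302 of 8011 passed. With both kinds thinned to 1000 UMIs 89 of 1923 did, and without the P42 corpus and cauda libraries 91 of 5073. When a pool was left out 72 to 319 did, with 4689 to 9304 tested. For the segment dependence 13 of 8011 passed. With DESeq2 3 of 8011 did, and with no filter 39 of 26029. When a pool was left out 9 to 34 did, with 4689 to 9304 tested. Between ages 210 of 4972 passed. With DESeq2 62 of 4972 did, and without the highest doublet scores 124 of 4080. In an additive fit 88 of 3942 did, and 377 of 2918 with all 4 MHC-II genes required as well. The number was 0 when either P56 pool was left out. The difference of 26.2 percentage points between corpus and caput in the share among members and C1q cells was 25.2 points with thinned cells (exact permutation p = 0.111). The thinned cauda mean of 58.5% lay above the corpus mean of 54.2%, and the corpus was the highest in 1 of 3 pools. When a pool was left out, the difference between corpus and caput was 22.3 to 28.6 points (smallest possible p 0.167). The direction of Cma1 against C1q cells turned under DESeq2, at 1.38. The cause of these changes was not tested. The alternatives without the P42 corpus and cauda and the additive fit with all 4 MHC-II genes were chosen after the data were seen.

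Without the replicate block 406 of 3390 genes passed between segments, and all 5 genes named there lost the call. With segment in place of the library block (no replicate block) 77 of 6364 passed against C1q cells, and Lsp1 lost the call (edgeR adjusted p = 0.432). The share among kept cells, which differed by 1.56 percentage points, gave an exact permutation p = 0.368 without the replicate block. No replicate block could be fitted for ages, because pools lie within ages. The 3 libraries of a pool were counted as independent there, although they came from the same mice. Deviations of same-pool libraries correlated with a median of 0.106, a value that includes the P42 pool, the only one of its age. Cd209a, Ifi205, Xcr1, Pf4 and Ccl8 kept their call against C1q cells under every alternative in which they were tested. Genes at 1 or 2 UMIs in a library, and subclusters with under 10 cells per library, limit what the depth can show.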
